A study of Mus musculus with 16 samples.

Results

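Messenger RNA levels of 10 cardiac transcription factors, Gata4, Gata6, Nkx2-5, Mef2a, Mef2c, Mef2d, Tbx5, Tbx20, Hand2 and Srf, are described in the left ventricle of the mouse. Every non-control probe that the array files name after one of these genes was taken, which gave 23 probes of 41174 on the array. Of these, 20 passed the filter on dim probes (well above background on 4 or more of the 16) and were kept, so that each of the 10 genes was measured, among 15670 genes tested. A probe of Mef2c (A_52_P282110) and a pair of Tbx20 probes (A_51_P445173 and A_52_P199191) were well above background on 0, 0 and 1 of the 16 arrays and were left out. Total RNA from a mid-ventricular section was hybridised to single-colour Agilent arrays, with 1 mouse per array. The first group, NOS3-TG TAC, comprised mice that carry an alpha-MHC-NOS3 transgene (endothelial nitric oxide synthase under the alpha-MHC promoter, which drives expression in heart muscle cells) and had lived for 10 weeks with transverse aortic constriction (TAC, an operation that narrows the aorta and so loads the left ventricle with pressure). NOS3-TG baseline mice carry the same transgene and were left intact. Wild-type (WT) mice without the transgene formed the remaining groups, WT TAC and WT baseline. All mice are on a C57BL/6 N background, 2 males and 2 females make up the 4 arrays of each group, and the ages of the mice are not given in the sources used here. Intact mice, not sham-operated ones, stand for baseline, so the constriction and the operation cannot be told apart.

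GATA4, GATA6, NKX2-5, TBX5, TBX20, HAND2, SRF and the MEF2 proteins are DNA-binding factors that together switch on and maintain the muscle gene programme of the heart. GATA factors bind GATA sequences, NKX2-5 is a homeodomain protein, TBX5 and TBX20 are T-box proteins, HAND2 is a basic helix-loop-helix protein, and SRF and the MEF2 proteins are MADS-box proteins that bind CArG boxes and MEF2 boxes. Several of them bind each other and share target promoters, among them that of the natriuretic peptide gene Nppa. In the adult ventricle GATA4, SRF and the MEF2 proteins are known as mediators of the response to pressure load, and class II histone deacetylases hold MEF2 proteins in check.

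Signals below are multiples of the 75th percentile of all non-control probes on the same array, so a level of 1 equals that percentile. Levels of a probe are compared between groups. Probes differ in brightness, so a higher signal at a probe than at another is not read as more RNA. Sums over markers and ratios of probes are likewise compared only between groups or arrays. Differences are on the log2 scale. A gene with several probes was represented by its brightest one, and a change was called at a Benjamini-Hochberg adjusted p under 0.05 over all 15670 genes in limma, with sex in the model.

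Array by array, the 75th percentile of signal was 1053 to 1491, and between 44.8% and 68.1% of probes were well above background. The number of arrays limits the precision, and the standard error of a member's log2 difference between groups reached 0.21. Nos3, the transgene's gene, was at 123, 219, 154 and 187 in NOS3-TG TAC mice, against 3.19, 3.31, 2.85 and 3.60 in WT TAC mice. It was at 198, 260, 241 and 235 in NOS3-TG baseline mice, against 1.95, 2.74, 2.45 and 2.64 in WT baseline mice, so every array bore out its genotype label. The 10 cardiomyocyte markers, among them Myh6, Myl2 and Tnni3, had a summed level of 1812 or more on every array. Markers of atrial cardiomyocytes differed between arrays far more than any member did: the summed level of Myl7, Myl4, Sln and Mybphl was 1.02 or less on 6 arrays and 11.9 or more on the other 10, up to 217. It ranged from 0.909 to 84.0 in NOS3-TG TAC mice and from 0.805 to 180 in NOS3-TG baseline mice. In WT TAC mice it ranged from 0.855 to 71.3, and in WT baseline mice from 0.874 to 217. After TAC the 4 males were all on the high side and the 4 females all on the low side. Since the tissue was measured in bulk, fewer cells of a type and less RNA per cell cannot be told apart.

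In WT mice 10 weeks of TAC changed 5 of the 10 factors. Mef2a, Mef2d, Tbx5 and Gata6 fell, and Tbx20 rose, whereas Gata4, Nkx2-5, Mef2c and Hand2 did not pass the test and Srf was just short of it. Of all 15670 genes, 28.4% were called in this comparison, 10.9% higher and 17.5% lower. In NOS3-TG mice the same comparison called 2 of the 10, Gata6 and Mef2d, both lower, beside 11.8% of all genes, 6.46% higher and 5.35% lower. The median log2 difference over the 10 genes was -0.13 in NOS3-TG mice, beside 0.00 over all genes, and -0.09 in WT mice, beside -0.06 over all genes. In WT mice 2 members lay wholly above and 3 wholly below the baseline arrays, beside 27.5% of all genes (10.2% above, 17.3% below). In NOS3-TG mice 1 lay above and 1 below, beside 16.6% of all genes (9.18% above, 7.45% below). TAC and baseline arrays were on different slides, so TAC and slide cannot be told apart. The 6 genes named here as called or nearly so kept their direction in all 4 pairings of a TAC slide with a baseline slide, in either genotype. These genes were picked for their TAC difference on the same arrays. Where groups do not overlap, the direction of every pairing is fixed in advance. The pairings therefore cannot separate TAC from slide.

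**Figure D1:**
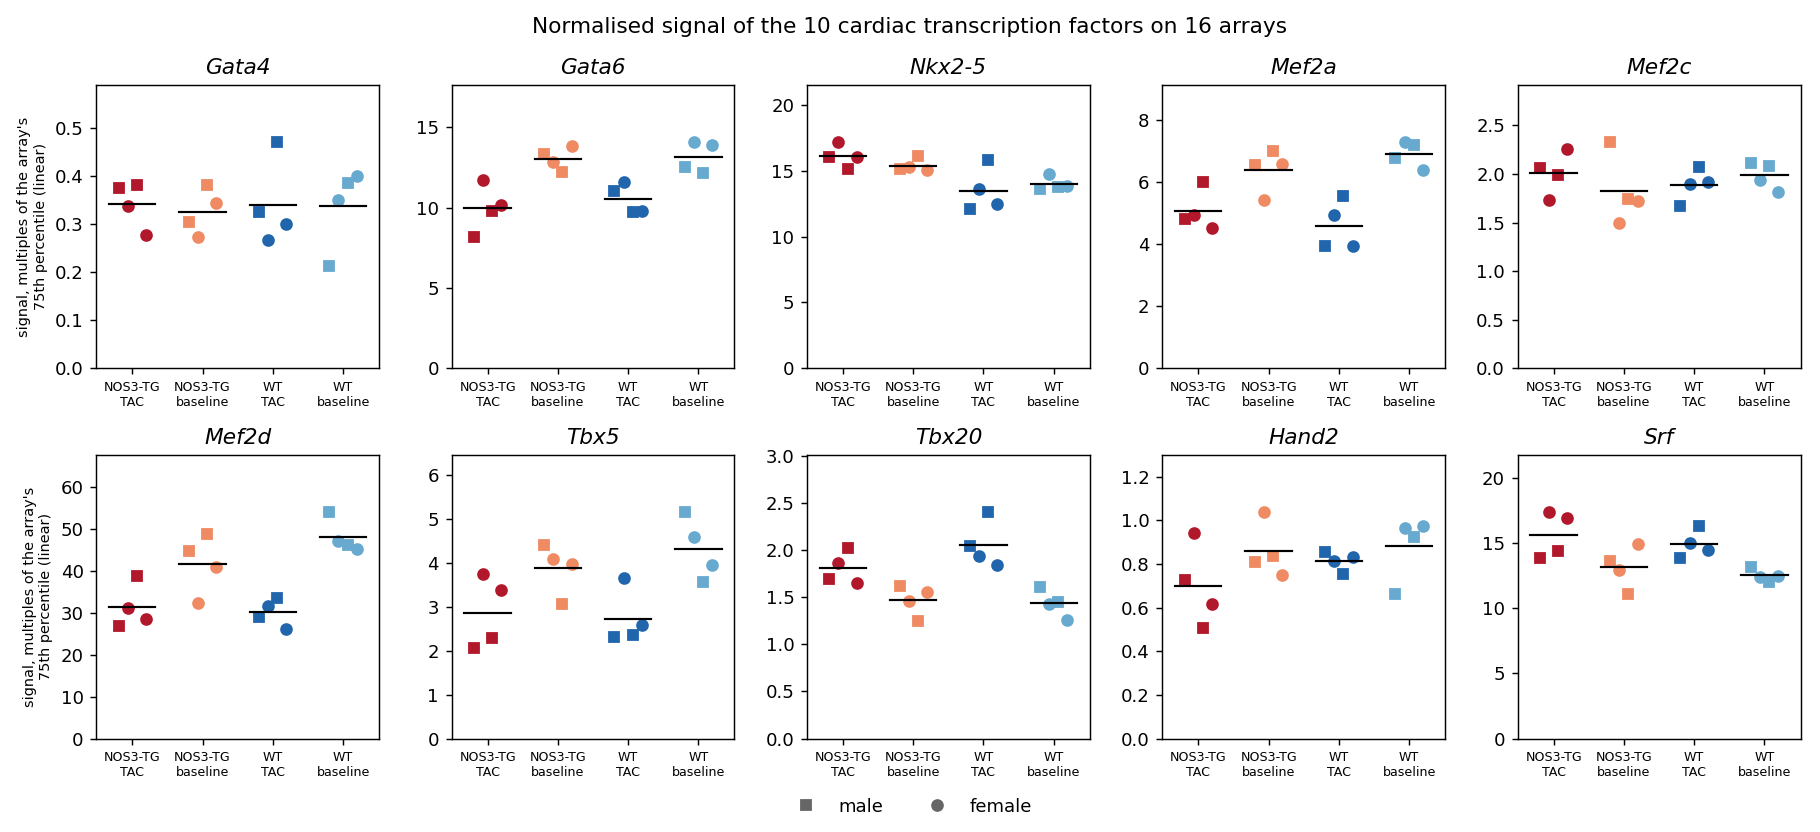
Signal of the probe that stands for each gene on every array, in multiples of the array's 75th percentile on a linear axis from 0; squares are males, circles females, and the line is the mean of 4 arrays. Mef2a and Mef2d of WT mice lie lower after TAC with no overlap, Tbx20 lies higher with no overlap, and Gata4 overlaps between all groups.

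**Figure D2:**
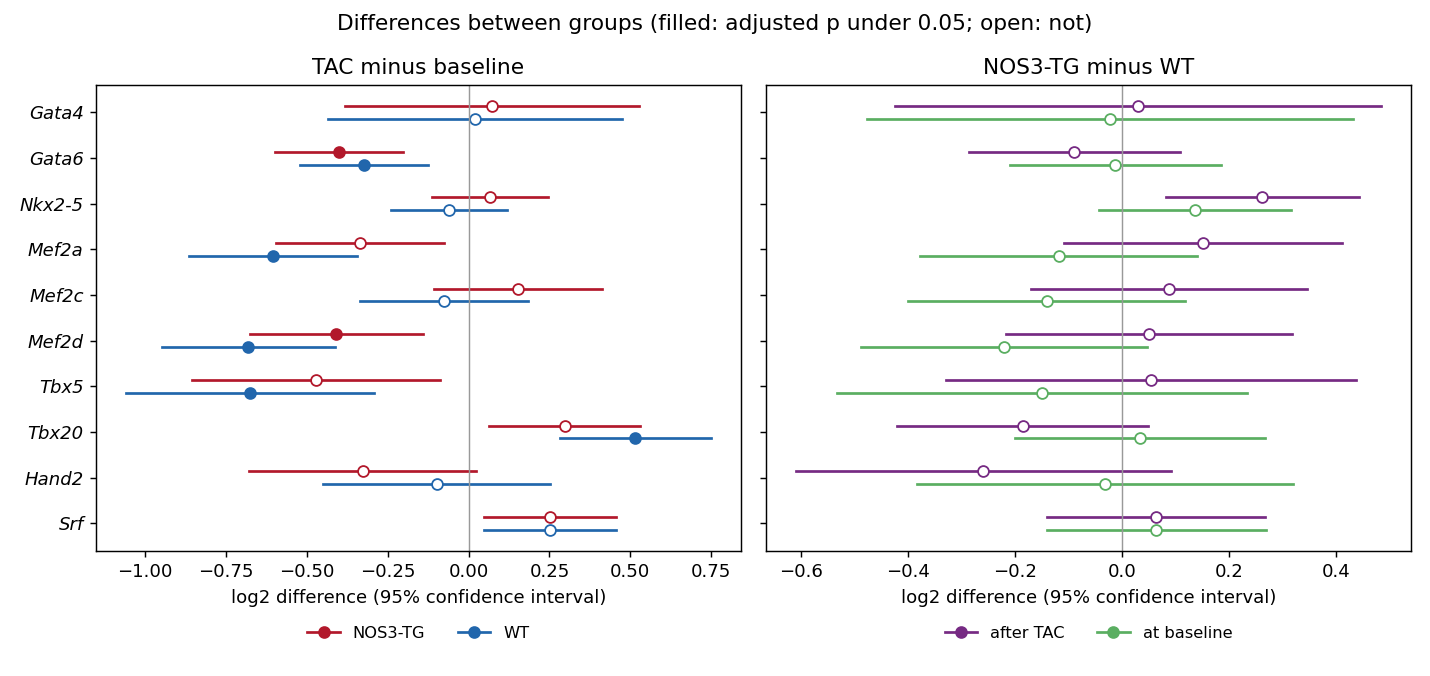
Log2 difference of each gene with its 95% confidence interval, TAC minus baseline on the left (NOS3-TG above WT) and NOS3-TG minus WT on the right (after TAC above baseline); filled circles passed an adjusted p under 0.05. Filled circles stand on the left for Gata6 and Mef2d in NOS3-TG mice and for Gata6, Mef2a, Mef2d, Tbx5 and Tbx20 in WT mice, and there are none on the right.

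MEF2A, MEF2C and MEF2D are the MEF2 proteins of heart muscle, and MEF2D is known to mediate the response of the mouse heart to pressure load. Mef2a was at 4.80, 4.94, 6.00 and 4.53 in NOS3-TG TAC mice, against 6.54, 5.43, 7.0 and 6.56 in NOS3-TG baseline mice. In WT TAC mice it was at 3.93, 4.93, 5.55 and 3.94, against 6.76, 7.29, 7.20 and 6.37 in WT baseline mice. All 4 WT TAC arrays were thus below all 4 WT baseline arrays, and in NOS3-TG mice the ranges overlapped through 1 TAC and 1 baseline array. Mef2a fell in WT mice by 0.60 ± 0.12 (log2 ± SE; limma, adjusted p = 0.0032), so that its signal fell by 34.2%. Its NOS3-TG difference was -0.33 ± 0.12, which did not pass (limma, adjusted p = 0.0885).

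Mef2d was at 27.0, 31.1, 38.7 and 28.7 in NOS3-TG TAC mice, against 44.8, 32.4, 48.9 and 40.9 in NOS3-TG baseline mice. It was at 29.1, 31.6, 33.6 and 26.2 in WT TAC mice, against 54.2, 47.1, 46.3 and 45.2 in WT baseline mice. The WT groups were far apart, while in NOS3-TG mice the lowest baseline array, replicate 2, lay below the highest TAC array, replicate 3. Mef2d fell by 0.68 ± 0.12 in WT mice (limma, adjusted p = 0.00198), so that its signal fell by 37.6%. It fell by 0.41 ± 0.12 in NOS3-TG mice (limma, adjusted p = 0.0484), a call that was lost in 9 of 15 other settings and in 12 of 16 fits with 1 array left out, where the adjusted p reached 0.283 and 0.136. Mef2c, which passed in no comparison, averaged 2.01 ± 0.218 in NOS3-TG TAC and 1.82 ± 0.357 in NOS3-TG baseline mice (SD, n = 4 each). It averaged 1.89 ± 0.166 in WT TAC and 1.99 ± 0.136 in WT baseline mice (SD, n = 4 each), and the 95% confidence interval of its WT difference ran from -0.33 to 0.18.

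Mef2a and Mef2d varied together: over the 16 arrays their log2 levels had a Pearson r of 0.93, and 0.76 after the group means and sex were removed. That is a description over arrays that share their groups, slides and scaling. The promoters of this pair are shown because the genes varied together, as RefSeq sequence of build GRCm38.p6 from 170 bases before to 30 bases after the annotated start, at chr7:67372829-67373028 (minus strand) and chr3:88142202-88142401 (plus strand). Capitals mark matches to a MEF2 box, CArG box, GATA site AGATAA, T-box half-site AGGTGT or NKX2-5 site TNAAGTG on either strand, searched from 250 bases before to 50 after the start.
Mef2a promoter: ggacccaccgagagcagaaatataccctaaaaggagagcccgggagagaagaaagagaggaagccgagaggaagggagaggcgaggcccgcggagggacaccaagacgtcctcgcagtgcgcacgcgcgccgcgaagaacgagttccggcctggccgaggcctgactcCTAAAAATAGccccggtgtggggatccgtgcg
Mef2d promoter: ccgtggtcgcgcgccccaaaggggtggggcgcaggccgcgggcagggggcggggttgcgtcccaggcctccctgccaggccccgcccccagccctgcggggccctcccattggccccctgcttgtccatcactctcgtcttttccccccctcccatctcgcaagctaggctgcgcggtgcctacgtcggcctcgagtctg
The Mef2a promoter held 1 MEF2 box, at position -2 from the annotated start, and 3.19% of 32851 promoters of the same length held one. The Mef2d promoter held none of the 5 motifs, and neither did those of Tbx20 and Nkx2-5. A match is only a run of letters, and no binding was measured here.

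The probes of a gene did not always move alike, which was checked for the 7 genes with several kept probes. All 3 Mef2a probes fell in WT mice, by 0.60, 0.75 and 0.87. The Mef2d call rested on a single probe, A_51_P394676 (chr3:88285656-88285715 in the files; the sources used here do not name their build). At A_51_P504672 (chr3:88282093-88282439) the difference was -0.27 ± 0.09 in NOS3-TG mice (limma over 23069 probes, adjusted p = 0.0838) and 0.00 ± 0.09 in WT mice (adjusted p = 0.982). At A_52_P334052 (chr3:88282204-88282263) it was 0.14 ± 0.19 and 0.29 ± 0.19 in NOS3-TG and WT mice, and did not pass. With the mean of all its probes, Mef2d gave -0.18 in NOS3-TG mice (limma, adjusted p = 0.283) and -0.13 in WT mice (adjusted p = 0.390), neither of which passed. Within an array, the signal of A_52_P334052 relative to A_51_P394676 was higher after TAC by 0.55 in NOS3-TG and by 0.97 in WT mice (exact permutation test, two-sided, p = 0.0571 and 0.0286). That of A_51_P504672, a brighter probe than A_52_P334052, was higher by 0.14 and 0.68 (same permutation test, p = 0.657 and 0.0286). For either probe, 4 of 4 WT TAC arrays had a higher ratio than any WT baseline array. After adjustment over the 20 ratios of probes tested, 0 had an adjusted p under 0.05. The smallest p that 4 arrays against 4 allow in this permutation test is 0.0286. Many of the 20 ratios would have to reach it for any to pass, so the adjusted result decides little.

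GATA4 and GATA6 are the GATA factors of the adult heart, and both activate hypertrophic genes when overproduced in mice. Gata6 was at 8.17, 11.7, 9.80 and 10.1 in NOS3-TG TAC mice, against 13.3, 12.8, 12.2 and 13.8 in NOS3-TG baseline mice. In WT TAC mice it was at 11, 11.6, 9.73 and 9.77, against 12.5, 14.1, 12.2 and 13.9 in WT baseline mice. In either genotype every TAC array was below every baseline array. Gata6 fell by 0.40 ± 0.09 in NOS3-TG mice (limma, adjusted p = 0.0156) and by 0.32 ± 0.09 in WT mice (limma, adjusted p = 0.0196). Its signal fell by 24.2% in NOS3-TG mice and fell by 20.1% in WT mice. Its other probes, A_52_P176245 and A_52_P590175, had differences of -0.44 and -0.21 in NOS3-TG mice and of -0.25 and -0.67 in WT mice, none of which passed. The WT call was lost without WT TAC replicate 4 (adjusted p = 0.0677) or WT baseline replicate 2 (0.0523), and the NOS3-TG call without NOS3-TG baseline replicate 1 (0.0509). The WT call was also lost with no filter on dim probes (0.0662), with the mean of all probes (0.0573) and with scan day in the model (0.0817). The NOS3-TG call was lost in those settings too (0.0585, 0.155 and 0.0700), and also in a fit of the compared groups alone (0.0652) and without the 3 arrays with the most extreme shares of probes above background (0.0885).

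Gata4 gave a different answer at each of its probes, both assigned to the same transcript and lying close together in the files, at chr14:58062775-58062796 for A_51_P492355 and chr14:58063189-58063248 for A_52_P4201. The brighter probe, A_51_P492355, was at 0.376, 0.338, 0.381 and 0.277 in NOS3-TG TAC mice, against 0.305, 0.273, 0.383 and 0.344 in NOS3-TG baseline mice. It was at 0.325, 0.267, 0.472 and 0.301 in WT TAC mice, against 0.214, 0.351, 0.387 and 0.402 in WT baseline mice. These groups overlapped throughout, and the log2 difference was 0.07 ± 0.21 in NOS3-TG and 0.02 ± 0.21 in WT mice (limma, adjusted p = 0.860 and 0.955). Probe A_52_P4201 was at 0.321, 0.252, 0.337 and 0.257 in NOS3-TG TAC mice, against 0.121, 0.109, 0.160 and 0.149 in NOS3-TG baseline mice. It was at 0.221, 0.225, 0.384 and 0.261 in WT TAC mice, against 0.0880, 0.145, 0.173 and 0.155 in WT baseline mice. Here every TAC array exceeded every baseline array of its genotype.

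At A_52_P4201 Gata4 rose by 1.12 ± 0.22 in NOS3-TG mice (limma over 23069 probes, adjusted p = 0.00848) and by 0.97 ± 0.22 in WT mice (limma, adjusted p = 0.0075), 2.17-fold and 1.95-fold. This probe is on 10 spots of each array, whose log2 signals had an SD between 0.07 and 0.25, and it was well above background on 15 of 16 arrays. With normexp background correction the differences were smaller, 0.71 in NOS3-TG mice (limma, adjusted p = 0.0423) and 0.58 in WT mice (adjusted p = 0.0513), and the WT call was lost. With the authors' values they were 1.13 and 1.01. The signal of A_52_P4201 relative to A_51_P492355 within an array was higher after TAC by 1.05 in NOS3-TG and by 0.95 in WT mice. All 4 TAC arrays of each genotype had a higher ratio than all 4 baseline arrays, which gave p = 0.0286 in either genotype (exact permutation test, two-sided), the smallest p that 4 arrays against 4 allow, and an adjusted p of 0.143 over the 20 such ratios tested. Which of the probes follows the Gata4 messenger RNA was not tested.

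**Figure D3:**
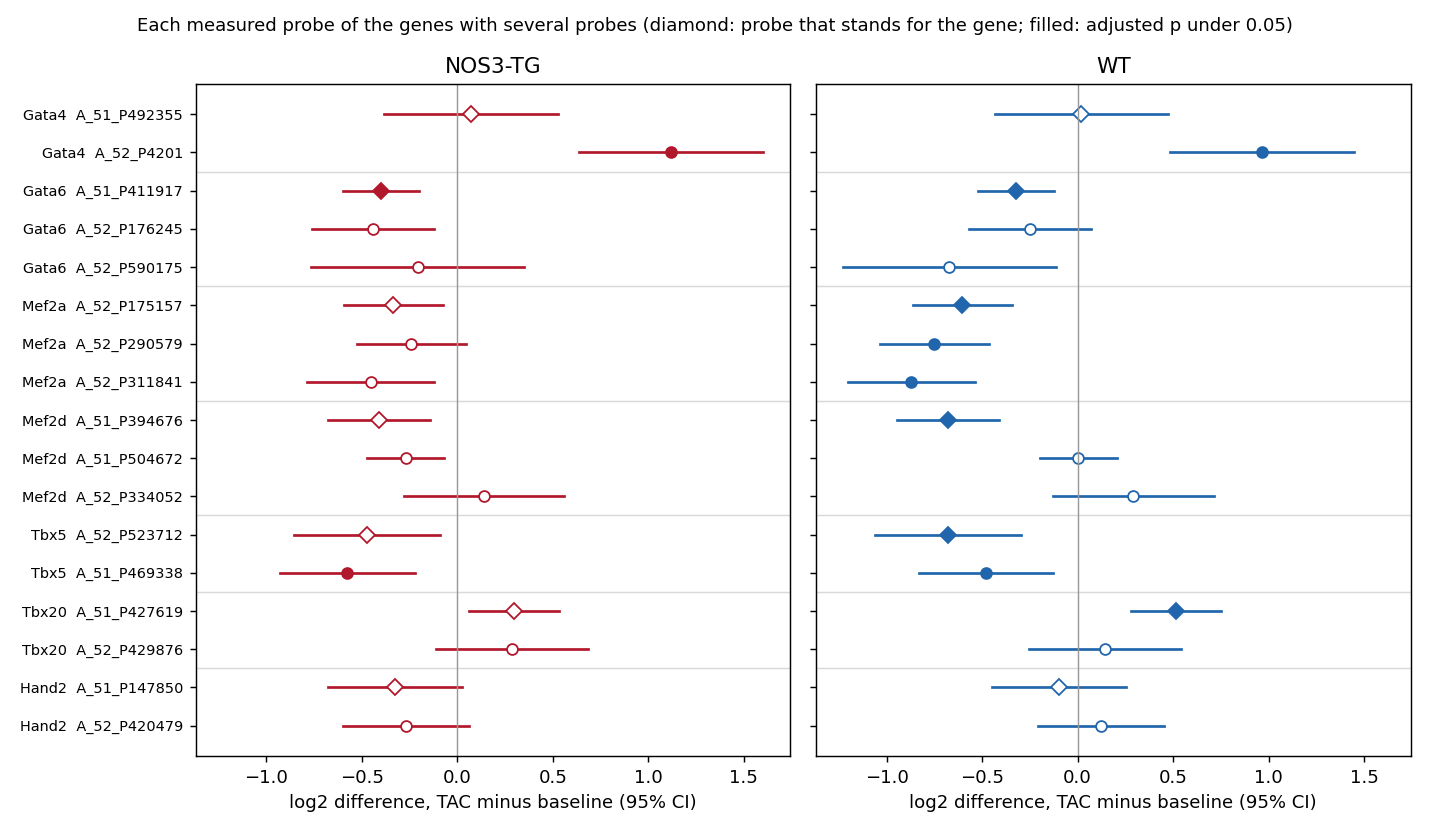
Log2 difference, TAC minus baseline, with 95% confidence interval for each kept probe of the 7 genes with several kept probes, NOS3-TG on the left and WT on the right. Diamonds mark the probe that stands for the gene, and filled symbols passed an adjusted p under 0.05 over all 23069 probes; the Gata4 probes differ by about 1 log2 unit in either genotype, and the Mef2a probes of WT mice all lie below 0.

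Counted by probe, 3 of the 20 were called in NOS3-TG mice (1 higher, 2 lower), beside 10.6% of all 23069 probes. In WT mice 9 were called (2 higher, 7 lower), beside 27.3%. The probe A_51_P394676 of Mef2d, called by gene in NOS3-TG mice, was not called when the adjustment ran over all probes.

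TBX5 and TBX20 are T-box factors of heart development and of adult heart muscle, and TBX5 is known to be richer in atrial than in ventricular muscle. Tbx5 was at 2.06, 3.76, 2.28 and 3.39 in NOS3-TG TAC mice, against 4.42, 4.10, 3.07 and 3.98 in NOS3-TG baseline mice. It was at 2.31, 3.66, 2.36 and 2.58 in WT TAC mice, against 5.17, 4.59, 3.56 and 3.97 in WT baseline mice. Replicates 1 and 3 of each group are the males and replicates 2 and 4 the females, and after TAC the males were the lowest arrays in either genotype. The groups overlapped, in WT mice only through female TAC replicate 2 and male baseline replicate 3. Tbx5 fell by 0.68 ± 0.18 in WT mice (limma, adjusted p = 0.0134), a call that was lost with scan day in the model (-0.62, adjusted p = 0.0548). Its difference of -0.47 ± 0.18 in NOS3-TG mice did not pass (limma, adjusted p = 0.102), but with the mean of its probes it did (-0.52, adjusted p = 0.0188). The weaker probe A_51_P469338 fell by 0.58 ± 0.16 in NOS3-TG mice and by 0.48 ± 0.16 in WT mice (limma over 23069 probes, adjusted p = 0.0407 and 0.0447).

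Because the atrial markers varied between arrays, Tbx5 was set beside them. The 4 TAC males, where Tbx5 lay between 2.06 and 2.36, had a summed atrial level between 11.9 and 84.0, and the 4 TAC females, where Tbx5 lay between 2.58 and 3.76, had at most 1.02. At baseline the highest Tbx5 level, 5.17, was on the array with the highest atrial sum, 217. With the log2 atrial sum as a further term, added after the values were seen, the Tbx5 difference was -0.43 in NOS3-TG mice (limma, adjusted p = 0.181) and -0.66 in WT mice (adjusted p = 0.0190), close to the values without it. After TAC the atrial sum split by sex, which is also in the model, so atrial signal and sex cannot be told apart there. The log2 change of Tbx5 with TAC was -0.77 in NOS3-TG males and -0.88 in WT males, and -0.18 in NOS3-TG females and -0.47 in WT females. The difference between the sexes in this change, 0.50 ± 0.23, did not pass over all genes (limma, adjusted p = 0.448).

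**Figure D4:**
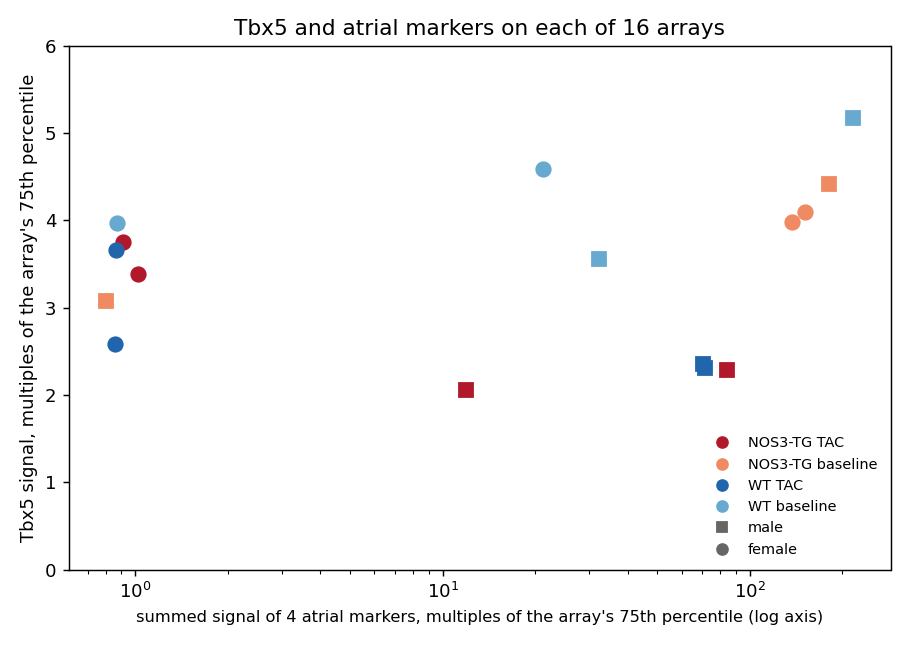
Tbx5 signal (linear axis from 0) against the summed signal of Myl7, Myl4, Sln and Mybphl (log axis) on each array, both in multiples of the array's 75th percentile; colours are the groups, squares males and circles females. The 6 arrays at the left have an atrial sum of at most 1.02, and the 4 TAC males form the lowest Tbx5 values, 2.06 to 2.36, on the right.

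Tbx20 had the opposite sign. It was at 1.69, 1.86, 2.02 and 1.65 in NOS3-TG TAC mice, against 1.62, 1.46, 1.24 and 1.56 in NOS3-TG baseline mice. In WT TAC mice it was at 2.05, 1.94, 2.41 and 1.84, against 1.61, 1.43, 1.45 and 1.26 in WT baseline mice. Every TAC array was above every baseline array of its genotype, narrowly so in NOS3-TG mice. Tbx20 rose by 0.52 ± 0.11 in WT mice (limma, adjusted p = 0.00433), 1.43-fold. In NOS3-TG mice its difference of 0.30 ± 0.11 did not pass (limma, adjusted p = 0.0941), and with the atrial sum in the model it did (0.41, adjusted p = 0.0103). Its dimmer probe A_52_P429876 had differences of 0.29 ± 0.18 in NOS3-TG and 0.14 ± 0.18 in WT mice, neither of which passed, and with the mean of its probes the WT call was lost (0.33, adjusted p = 0.0887).

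SRF binds CArG boxes in genes of the contractile apparatus and in immediate early genes. Srf was at 13.8, 17.4, 14.4 and 17.0 in NOS3-TG TAC mice, against 13.6, 13, 11.1 and 14.9 in NOS3-TG baseline mice. It was at 13.9, 15.0, 16.4 and 14.5 in WT TAC mice, against 13.2, 12.4, 12.0 and 12.5 in WT baseline mice. The WT groups did not overlap and the NOS3-TG groups did. The log2 difference was 0.25 ± 0.09 in either genotype and passed in neither (limma, adjusted p = 0.102 in NOS3-TG and 0.0625 in WT mice). In WT mice it passed in 5 of 15 other settings, among them quantile normalization, with the lowest adjusted p at 0.0146.

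Tbx20 and Srf had a Pearson r of 0.72 over the 16 arrays, and 0.78 after group means and sex were removed, so arrays with more signal for Tbx20 tended to have more for Srf within the groups as well. Their promoters are shown for comparison, from the same RefSeq build and window, at chr9:24774274-24774473 (minus strand) and chr17:46556133-46556332 (minus strand), with the same motifs in capitals.
Tbx20 promoter: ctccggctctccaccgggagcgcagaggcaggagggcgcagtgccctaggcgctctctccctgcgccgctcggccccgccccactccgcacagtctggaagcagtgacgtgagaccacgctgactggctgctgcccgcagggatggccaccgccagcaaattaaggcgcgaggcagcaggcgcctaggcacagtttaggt
Srf promoter: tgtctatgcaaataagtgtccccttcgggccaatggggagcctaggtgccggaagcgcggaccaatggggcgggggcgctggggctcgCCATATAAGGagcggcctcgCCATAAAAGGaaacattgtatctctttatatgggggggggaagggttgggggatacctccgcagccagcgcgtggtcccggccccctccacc
The Srf promoter held 2 CArG boxes, CCATATAAGG and CCATAAAAGG, at positions -82 and -62 from the annotated start, and 1.63% of the 32851 promoters held a CArG box. None of the 5 motifs was in the Tbx20 window. Over the 9 promoter windows available for 7 of the 10 genes, the other matches were 1 T-box half-site in a Mef2c window and 1 GATA site in the Hand2 window, motifs that 13.7% and 11.2% of all promoters held.

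NKX2-5 is a homeodomain partner of GATA4 and TBX5, and HAND2 is needed to form the right ventricle of the embryo. Nkx2-5 was at 16, 17.2, 15.1 and 16.1 in NOS3-TG TAC mice, against 15.1, 15.3, 16.1 and 15.1 in NOS3-TG baseline mice. In WT TAC mice it was at 12.1, 13.6, 15.8 and 12.5, against 13.6, 14.7, 13.8 and 13.9 in WT baseline mice. TAC and baseline overlapped in either genotype, with log2 differences of 0.07 ± 0.08 in NOS3-TG and -0.06 ± 0.08 in WT mice that did not pass. The 95% confidence intervals ran from -0.11 to 0.25 in NOS3-TG and from -0.24 to 0.12 in WT mice. Hand2 averaged 0.698 ± 0.185 in NOS3-TG TAC and 0.859 ± 0.126 in NOS3-TG baseline mice (SD, n = 4 each). It averaged 0.814 ± 0.0430 in WT TAC and 0.881 ± 0.147 in WT baseline mice (SD, n = 4 each), and it passed in no comparison, at either of its probes.

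The transgene was compared with WT in intact mice and after TAC. No member passed in either: 0 of 10 at baseline, beside 0.415% of all genes called, and 0 of 10 after TAC, beside 0.281% (limma, Benjamini-Hochberg). At an unadjusted p under 0.05 there were 0 members at baseline and 1 after TAC, Nkx2-5, beside 1926 and 1922 of all 15670 genes. Nkx2-5 was higher in NOS3-TG mice after TAC by 0.26 ± 0.08 (limma, adjusted p = 0.212), with overlap through 1 WT array. At baseline its difference was 0.14 ± 0.08 (limma, adjusted p = 0.527), yet all 4 NOS3-TG arrays were above all 4 WT arrays, the only member of the 10 for which genotypes did not overlap at baseline, beside 9.95% of all genes (3.89% higher in NOS3-TG mice). After TAC the genotypes overlapped for every member, while 5.55% of all genes did not overlap. The difference of Nkx2-5 was positive on each of the 4 slides, which hold both genotypes, between 0.10 and 0.37. Nkx2-5 was picked for its genotype difference on these same arrays. Since its baseline groups do not overlap, the sign on the baseline slides was fixed in advance. The slides are therefore no separate test of this difference.

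The other 9 members differed between the genotypes by -0.26 to 0.15 after TAC and by -0.22 to 0.06 at baseline. Of these, Mef2d had the largest baseline difference, -0.22 ± 0.12 at its brightest probe, which did not pass (limma, adjusted p = 0.489). Within the baseline slides this difference was -0.41 and -0.03. At the Mef2d probe A_51_P504672 the baseline difference had the opposite sign, 0.30 ± 0.09, and did not pass either (limma over all kept probes, adjusted p = 0.233). At A_52_P334052 it was -0.0008 ± 0.19, so the Mef2d probes gave no common direction. The TAC changes of the genotypes were also compared directly, and the interaction of genotype and TAC called 0 of the 10 members and 0 of all 15670 genes (0% called in limma), with 0 members and 1166 genes at an unadjusted p under 0.05. For Mef2a and Mef2d the TAC change in NOS3-TG minus that in WT was 0.27 ± 0.17 and 0.27 ± 0.18, for Tbx5 0.20 ± 0.25 and for Tbx20 -0.22 ± 0.15, with adjusted p between 0.725 and 0.849 (limma). So the larger number of calls in WT mice is not shown to be a difference between the genotypes. The intervals also leave room for one: that of Mef2d ran from -0.11 to 0.65. The other Mef2d probes, A_51_P504672 and A_52_P334052, had the opposite sign, -0.27 ± 0.13 and -0.15 ± 0.27. The other Mef2a probes, A_52_P290579 and A_52_P311841, had 0.51 ± 0.19 and 0.42 ± 0.22. None of these probes passed.

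Between the sexes, 0 of 10 members passed, beside 1.32% of all genes (limma). At an unadjusted p under 0.05 were Tbx5, higher in females by 0.31 ± 0.13 (limma, adjusted p = 0.244), and Gata6, higher in females by 0.14 ± 0.06 (adjusted p = 0.307). Among all 15670 genes, 2495 were under that threshold. By probe, A_51_P504672 of Mef2d was higher in females by 0.33 (limma over 23069 probes, adjusted p = 0.0332), the 1 of 20 member probes called, beside 1.24% of all probes. The brightest Mef2d probe had -0.18 ± 0.09, the opposite sign.

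For each member the genes of the most similar pattern over the 16 arrays were found by Pearson's r of the log2 levels. These values are descriptions of genes chosen for their likeness, on arrays that share groups, slides and scaling. Mef2d was nearest to Adra1b, the alpha-1B adrenergic receptor (r = 0.976), then to Nhsl1 (0.971) and Crhr2 (0.956). Mef2a was nearest to Nhsl1 as well (0.971), then to Zadh2 (0.958) and Ppil1 (0.957). Gata6 lay nearest to Ptpru (0.958), Slc38a3 (0.950) and Pcnt (0.943). Tbx5 lay nearest to Whrn (0.936), Lzts3 (0.929) and Siae (0.927), and Tbx20 to Rabep1 (0.935), F730043M19Rik (0.912) and Gnao1 (0.892). The nearest gene had a lower r for the members called in neither genotype: Gpkow for Gata4 (0.855), Nol3 for Nkx2-5 (0.860), Mphosph6 for Mef2c (0.864), Ppp1r3g for Srf (0.870) and Unk for Hand2 (0.879). After group means and sex were removed, these ranges overlapped. The r with the same nearest gene was then 0.78 (Tbx20) to 0.93 (Mef2a) for called members and 0.62 (Srf) to 0.85 (Gata4) for the others.

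Other cardiac transcription factors were examined beside the 10. Here and in the lists below, at most 4 called genes are named per list and comparison. A gene named for a single genotype may therefore be called in the other as well. The interaction of genotype and TAC called 0 of all 15670 genes, so no such gene is shown to differ between the genotypes in its TAC change. Of 30 measured, 3 rose and 2 fell with TAC in NOS3-TG mice, and 5 rose and 7 fell in WT mice, 16.7% and 40.0% called, beside 11.8% and 28.4% of all genes. Their median log2 difference was 0.07 in NOS3-TG and -0.12 in WT mice. The homeobox gene Irx3 rose by 1.55 ± 0.26 in NOS3-TG mice (limma, adjusted p = 0.00291) and by 1.15 ± 0.26 in WT mice (adjusted p = 0.0056). Sox4 and Irx5 rose in NOS3-TG mice by 1.1 and 0.59, and Klf13, a partner of GATA4, fell there by 0.79. In WT mice Sox9, a factor of cartilage and valve cells, rose by 1.49, while Klf15, a repressor of cardiac hypertrophy, fell by 0.74 and Tbx1 by 0.61. Gata5, Hand1, Isl1, Tead3, Tead4 and Nr2f1 were among those on the array that were too dim to be tested.

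Cofactors of these proteins were called about as often as all genes. Of 25 measured, 1 rose and 2 fell in NOS3-TG mice (12.0%) and 3 rose and 4 fell in WT mice (28.0%), with medians of -0.06 in either genotype. Hopx, a homeodomain protein that restrains SRF, fell by 0.63 ± 0.19 in NOS3-TG mice (limma, adjusted p = 0.0455) and by 1.06 ± 0.19 in WT mice (adjusted p = 0.00162). Hdac4, a class II histone deacetylase that represses MEF2, fell by 0.56 ± 0.13 in NOS3-TG mice (limma, adjusted p = 0.0138). Its WT value is not given here. Wwtr1, which encodes the TEAD coactivator TAZ, rose by 0.40 in NOS3-TG and by 0.52 in WT mice. Zfpm2, the GATA4 partner FOG2, fell by 0.74 in WT mice at its brightest probe, while its other probe had the opposite sign, and Jarid2 fell by 0.52 in WT mice.

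Known targets were called in either direction. Of 20 SRF targets, 4 rose and 4 fell with TAC in NOS3-TG mice (40.0% called), and 5 rose and 5 fell in WT mice (50%), beside 11.8% and 28.4% of all genes. Acta1, the skeletal alpha-actin gene, rose by 2.56 ± 0.33 in NOS3-TG mice (limma, adjusted p = 0.000746) and by 2.45 ± 0.33 in WT mice (adjusted p = 0.000402). The smooth muscle gene Lmod1 fell by 1.31 in NOS3-TG and by 1.11 in WT mice. The median over the 20 was -0.03 in NOS3-TG and -0.22 in WT mice. At baseline Fos, an immediate early gene, was lower in NOS3-TG than in WT mice by 1.80 ± 0.29 (limma, adjusted p = 0.0155), the 1 SRF target of 20 called between the genotypes.

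Of 16 MEF2 targets, 2 rose and 0 fell in NOS3-TG mice, and 3 rose and 6 fell in WT mice. These were 12.5% and 56.3% called, beside 11.8% and 28.4% of all genes. In NOS3-TG mice 9 of the 16 had an unadjusted p under 0.05 in limma, beside 4353 of all 15670 genes. The rises were in genes of the muscle cytoskeleton: Xirp2 rose by 1.02 ± 0.10 in NOS3-TG mice (limma, adjusted p = 0.000115) and by 1.00 ± 0.10 in WT mice (adjusted p = 7.85e-05), and Des rose by 0.68 in NOS3-TG and by 0.79 in WT mice. Xirp1 rose by 0.92 in WT mice. Nr4a1, a nuclear receptor of the immediate early response, fell by 1.37 in WT mice after TAC and was lower at baseline in NOS3-TG than in WT mice by 2.09 ± 0.24 (limma, adjusted p = 0.00208). The median over the 16 was 0.00 in NOS3-TG and -0.20 in WT mice.

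Of 25 targets of GATA4, NKX2-5 and TBX5, 5 rose and 2 fell in NOS3-TG mice (28.0% called) and 6 rose and 6 fell in WT mice (48.0%), beside 11.8% and 28.4% of all genes. The natriuretic peptide gene Nppb rose by 2.08 ± 0.29 in NOS3-TG mice (limma, adjusted p = 0.0011) and by 2.94 ± 0.29 in WT mice (adjusted p = 7.85e-05), and Nppa rose by 1.75 in NOS3-TG and by 2.06 in WT mice. Bcl2, which encodes an inhibitor of cell death, rose by 1.83 ± 0.13 in NOS3-TG mice (limma, adjusted p = 1.47e-05) and by 1.33 ± 0.13 in WT mice (adjusted p = 6.66e-05). The adenosine receptor gene Adora1 fell by 0.78 in NOS3-TG mice and the muscarinic receptor gene Chrm2 by 1.14 in WT mice. The median over the 25 was -0.01 in NOS3-TG and -0.15 in WT mice. The lists overlap, since Nppa is in the SRF list too.

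Markers of other cell types moved with TAC in the same tissue, and their part in the changes above was not tested. In WT mice 4 of 10 fibroblast markers rose, among them Postn by 2.46 and Col1a1 by 1.32, and 4 of 8 endothelial and 5 of 8 macrophage markers rose, while 2 of 8 smooth muscle and pericyte markers fell, Myh11 by 1.07 and Abcc9 by 0.98, beside 10.9% of all genes higher and 17.5% lower. Of 3 epicardial and mesothelial markers, Wt1 rose in WT mice, by 1.15. In NOS3-TG mice 2 fibroblast markers, 1 endothelial and 1 macrophage marker rose and Myh11 fell by 1.12, beside 6.46% of all genes higher and 5.35% lower. The endothelial marker Tek, called in either genotype, had another probe of opposite sign. The summed fibroblast level ranged from 390 to 458 in NOS3-TG TAC, from 368 to 419 in NOS3-TG baseline, from 400 to 482 in WT TAC and from 392 to 445 in WT baseline mice. Of 10 cardiomyocyte markers, Pln and Ckm fell in WT mice, by 0.39 and 0.44. In NOS3-TG mice 0 were called and 2 had an unadjusted p under 0.05 in limma, beside 4353 of all 15670 genes. The summed cardiomyocyte level ranged from 1812 to 2283 in NOS3-TG TAC, from 1969 to 2646 in NOS3-TG baseline, from 1861 to 2441 in WT TAC and from 2150 to 2700 in WT baseline mice. The summed macrophage level ranged from 92.9 to 104 in NOS3-TG TAC, from 78.2 to 94.5 in NOS3-TG baseline, from 77.9 to 98.2 in WT TAC and from 55.8 to 71.5 in WT baseline mice. All WT baseline arrays were thus below all arrays of the other groups. Such sums follow their brightest probes. Over the arrays Lyz2 was at 47.2 to 89.0, while every other macrophage marker was at 6.23 or less. Among the fibroblast markers Gsn was at 158 to 230 and Dcn at 94.6 to 148. Between the genotypes at baseline 2 of 8 macrophage markers, Csf1r and Adgre1, were higher in NOS3-TG mice by 0.59 and 0.63, beside 0.415% of all genes called, and 1 of the other probes of Csf1r had the opposite sign. In that comparison 7 of the 8 had an unadjusted p under 0.05 in limma, beside 1926 of all 15670 genes. The median log2 difference over the 8 was 0.61, beside -0.06 over all genes. The summed endothelial level ranged from 61.3 to 72.5 in NOS3-TG TAC, from 54.5 to 73.2 in NOS3-TG baseline, from 71.7 to 77.2 in WT TAC and from 68.7 to 80.3 in WT baseline mice. The summed smooth muscle and pericyte level ranged from 57.5 to 67.1 in NOS3-TG TAC, from 61.9 to 78.8 in NOS3-TG baseline, from 57.4 to 76.8 in WT TAC and from 76.5 to 97.3 in WT baseline mice.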

How the data were processed

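Left ventricular RNA of 16 mice was measured on single-colour arrays, and groups were taken from the labels. The spot intensity is the background-subtracted processed signal that the authors deposited, scanner output for which the submitters' processing notes name Feature Extraction, version 9.5.1.1. It is not normalized between arrays; flags for background, saturation and outliers are those of the file headers. The authors also deposited log2 values for 22057 probes, with the normalization not given in the sources used here; per array they had r of 0.9996 or more over probes with the log2 signal used here, and their medians lay between 9.95 and 9.99. They served as an alternative.

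Control and outlier spots were removed, spots of a probe averaged as log2, and each array's 75th percentile subtracted. Probes well above background on at least 4 of 16 arrays were kept, and the probe of highest mean stood for a gene. Names came from accessions or symbols in RefSeq annotation of GRCm38.p6 (22951 and 9768 of 41174 probes), otherwise from the files (8455), and members from the files' own gene names. Limma 3.58.1 in R 4.3.3 was fitted to all 16 arrays with a mean for each of the 4 groups and a sex term (two-sided, Benjamini-Hochberg, threshold 0.05). A fit of the TAC change within each sex, and exact permutation tests of ratios of 2 probes of 1 gene, were added after the values were seen. Other settings tried were normexp background correction (offset 50), quantile normalization, the authors' values, other filters, probe averaging, other terms for sex, slide and scan day, array weights, an intensity trend, and arrays left out. The model was tested on simulated data. Baseline arrays lay on slides 1 and 4, TAC arrays on slides 2 and 3; only slide 3 had another scan day. Figures used matplotlib in Python.

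The members, the lists and the rule for naming genes were chosen with earlier results of these data known. The rule names all members, up to 4 called genes of largest change per list and comparison, Nos3, and for each member the 3 genes of highest Pearson correlation. Not all such genes are given here.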

Additional observations from a re-analysis of the deposited data

Results flagged for a closer look

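Over the 20 kept probes in 4 groups, 80 sets of 4 arrays were checked for an array far from the other 3, and 3 stood out; chance alone flags about 1 in 20 such sets. Gata6 at A_52_P176245 was at 0.883 times the 75th percentile on NOS3-TG TAC replicate 2, a female, above the other 3 arrays of that group at 0.594, 0.597 and 0.620. The brighter Gata6 probe was also highest on that array, at 11.7, but was not set apart from its group. Hand2 at A_51_P147850 was at 0.663 on WT baseline replicate 1, a male, below 0.921, 0.967 and 0.974 on the other 3 arrays. Hand2 at A_52_P420479 was at 0.590 on WT TAC replicate 3, a male, above 0.490, 0.497 and 0.505 on the other 3, while the other Hand2 probe was lowest on that array, at 0.755.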

How the results depend on the processing

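In WT mice the count of members called between TAC and baseline was 5, and it was 2 with all probes averaged per gene, 3 with scan day as a term, 4 with no filter, 6 with quantile normalization, the authors' values, array weights or an intensity trend, and 4 to 6 with 1 array left out. In NOS3-TG mice it was 2. It was 3 with array weights and 1 with normexp background correction, the mean of all probes, all probes tested, no sex term, slide as a random block (within-slide correlation 0.0602) or without the 3 arrays with extreme shares above background, which are NOS3-TG TAC replicates 3 and 4 and NOS3-TG baseline replicate 2. It was 0 with no filter, the compared groups alone or scan day as a term, and 0 to 2 with 1 array left out, the 0 without NOS3-TG baseline replicate 1. No filter adds probes to the adjustment, and the compared groups alone leave fewer arrays. Only slide 3, which holds TAC arrays alone, had another scan day, so a scan-day term overlaps with TAC. Why calls were lost or gained in any of these settings was not tested. With the atrial marker sum as a term, added after the values were seen, the counts were 2 in NOS3-TG and 6 in WT mice; in NOS3-TG mice Mef2d lost its call (adjusted p = 0.0613) and Tbx20 gained one (0.0103).

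In the comparisons of genotype, interaction and sex, 0 of the 10 genes were called in each setting run, slide as a fixed block among them, and with each array left out. Counted by probe, 1 was called between the sexes, A_51_P504672 of Mef2d, which does not stand for its gene. Mef2a in WT mice stayed called in 15 of 15 other settings and 16 of 16 fits without 1 array. Mef2d, Tbx5 and Tbx20 in WT mice stayed called in 14 of 15 and 16 of 16, with the call lost for Mef2d and Tbx20 with the mean of all probes (adjusted p = 0.390 and 0.0887, limma) and for Tbx5 with scan day as a term (0.0548). The fits without 1 array, and most other settings, used only the brightest probe of a gene. They cannot show whether its probes agree. For Mef2d they did not: the WT difference was 0.00 at A_51_P504672 and 0.29 at A_52_P334052. Gata6 stayed called in 12 of 15 and 14 of 16 in WT mice and in 10 of 15 and 15 of 16 in NOS3-TG mice. No called member turned its direction. Over all genes, the count of calls ranged from 401 to 2917 around 1851 in NOS3-TG mice and from 2695 to 6301 around 4452 in WT mice. The labels carry no replicate numbers shared between groups, so arrays were not paired by number. Each slide holds both genotypes and both sexes but either TAC or baseline arrays, so slide could be a fixed block for genotype, interaction and sex and not for TAC. Some member probes were weak: the Mef2d probe A_52_P334052 was well above background on 13 of 16 arrays and the Gata6 probe A_52_P590175 on 6.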
